A study of Mus musculus with 8 samples.

Results

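The resting transcriptome of primary murine articular chondrocytes was described from the 4 vehicle-treated RNA-Seq samples among the 8 of the series. The cells were released with collagenase from hip cartilage (femoral head) of wild-type mice aged 3 weeks, grown in high-glucose medium with 10% fetal bovine serum, and given vehicle for 24 h. The labels of these samples state neither the sex of the mice, nor how many animals went into a sample, nor what the vehicle was. They number the samples 1 to 4 without saying whether these came from separate isolations, so the spread between them may be technical. As a model they are limited to cells of growing animals, cultured outside their matrix. No other group was read.

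All 54658 gene symbols of the count table were included, of which 30238 had at least 1 count in a vehicle sample and 24420 had none. The counts of each gene were divided by its deposited length and scaled to a sum of 1000000 in each sample (TPM). For 53172 symbols this length equals the merged length of all annotated exons, which can exceed that of the mRNA made. Levels and ratios between genes therefore depend on the annotation as well. Means are given ± SD over the 4 samples, and the transcript pool means the summed TPM of all genes in a sample. Since 1 group was examined, no test between groups was made. Genes are ordered by whether the ranges of their 4 values lie apart.

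Articular chondrocytes build and maintain the matrix that covers the ends of bones. Type II collagen forms its fibrils, with type IX and XI collagen as minor partners, and aggrecan bound to hyaluronan by link protein gives it its resistance to compression. SOX9, with SOX5 and SOX6, is the master regulator of these genes. In the intact tissue, the superficial layer makes lubricin, deeper layers make more matrix, and cells that approach bone become hypertrophic and make type X collagen. Chondrocytes grown on plastic are known to drift towards a fibroblast-like state with more type I collagen.

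Depth was similar between samples, with 13970959 to 17456063 total counts (median 16188276.5). A gene with at most 3 counts in every sample was taken as at the floor. These 3 counts corresponded to 0.172 to 0.215 CPM (counts scaled to 1000000 without division by length). The common coefficient of variation beyond counting error was 4.16% (edgeR), and Pearson's r of log2 CPM between samples, across 13405 genes that are not independent of each other, was 0.995 to 0.996. A few rows, ribosomal RNAs among them, stood apart from this agreement. *CT010467.1*, a ribosomal RNA row at chr17:39846353-39848827 (GRCm38), had 274, 281, 1185 and 3083 TPM. The mitochondrial ribosomal RNA *mt-Rnr1* had 15.4, 12.5, 45.6 and 107 TPM, and *Gm23935*, a 57-base row annotated as a miRNA gene, had 20622, 14975, 37380.3 and 79889 TPM. Replicate 4 was highest and replicate 3 next in each of the 7 genes whose tagwise variation was above 20%, among 9768 genes with a mean of at least 100 counts. The other 4 were *Gm24270*, *Lars2*, *mt-Rnr2* and *Gm25911*, and next in order were *Rps6-ps4*, *Gm5735* and *Gm44609*, at 17.3, 13.3 and 12.4%. The small structural RNAs together took 18.6, 18.2, 19.7 and 24.0% of the pool in replicates 1 to 4, and each of the 14 gene classes described below had its lowest share in replicate 4. The source of these rows was not tested. Without that replicate the common variation was 3.37%.

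The 5 markers listed for articular chondrocytes were all abundant. *Col2a1*, which encodes type II collagen, had 3429, 3422, 3370.3 and 3330.4 TPM (3388 ± 46.3 TPM) and ranked 13 among protein-coding genes. *Prg4*, which encodes lubricin, had 573, 579.6, 569 and 519 TPM. *Comp*, the pentameric matrix protein that binds collagen fibrils, had 508, 497, 500.1 and 497 TPM. These samples were close to each other, with *Prg4* lowest in replicate 4. *Acan*, the core protein of aggrecan, had 482, 481, 478 and 480.1 TPM, and *Sox9* had 393, 389, 388 and 363 TPM. Per length, the order *Col2a1*, *Prg4*, *Comp*, *Acan*, *Sox9* held with no overlap between the ranges of neighbours, although *Comp* was no more than 1.04 ± 0.00983 times *Acan*. By counts alone, *Comp* was 0.414 times *Acan* and *Prg4* was 1.61 times *Comp*, so this order depends on the division by length. None of the 5 fell below 300 TPM in any sample.

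At a threshold of 1 TPM in each of the 4 samples, 14949 genes were detected, of which 11238 were protein-coding. No minimum count was required, so a short row can pass with few reads. With at least 3 counts in each sample as the rule instead, 18115 genes passed, and with at least 10 counts 14693 did. Outside the mitochondrial genome, 11225 of 21835 protein-coding symbols were detected, the share to set beside the list counts below. Of all detected genes, 7636 reached 10 TPM, 1045 reached 100 TPM and 81 reached 1000 TPM. The pool was concentrated: 97 genes held 50% of the mean profile, and 111, 102, 100 and 74 genes did so in replicates 1 to 4. The count was smallest in replicate 4, where the small structural RNAs were highest, and was 105 without that replicate. Among protein-coding genes alone, 401 genes held 50% and the 100 most abundant held 32.3%. The samples shared their ranking closely. All 25 most abundant genes were the same in the 4 samples, and so were 93 of the 100 most abundant.

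Noncoding rows led the ranking. *Gm26917*, a row annotated as a long noncoding RNA at chr17:39843013-39846341, had 112705, 119157, 112122 and 106664 TPM, 11.3% of the pool. It lies beside the ribosomal RNA row *CT010467.1*. *Gm26917* was highest in replicate 2 and *CT010467.1* in replicate 4. Whether reads of *Gm26917* come from ribosomal RNA was not tested. *Rn7sk*, the RNA that holds the elongation factor P-TEFb inactive, followed with 77286 ± 3627 TPM, and *Rn7s2*, a copy of the signal recognition particle RNA, had 6417 ± 617 TPM. The rows *Gm26461*, *Gm23973*, *Gm24514* and *Gm24447*, annotated as miscellaneous RNA, had 30194, 11377, 9176 and 6537 TPM, and *Scarna2*, a small Cajal body RNA, had 3979 TPM. Short rows gain from division by length, since few reads then give a high level. The small structural RNAs were 20.1 ± 2.67% of the pool but only 1.95% of the counts, and protein-coding genes were 59.5 ± 1.78% of the pool but 80.4% of the counts. How the library kit selected RNA is not given in the sources used here.

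**Figure D1:**
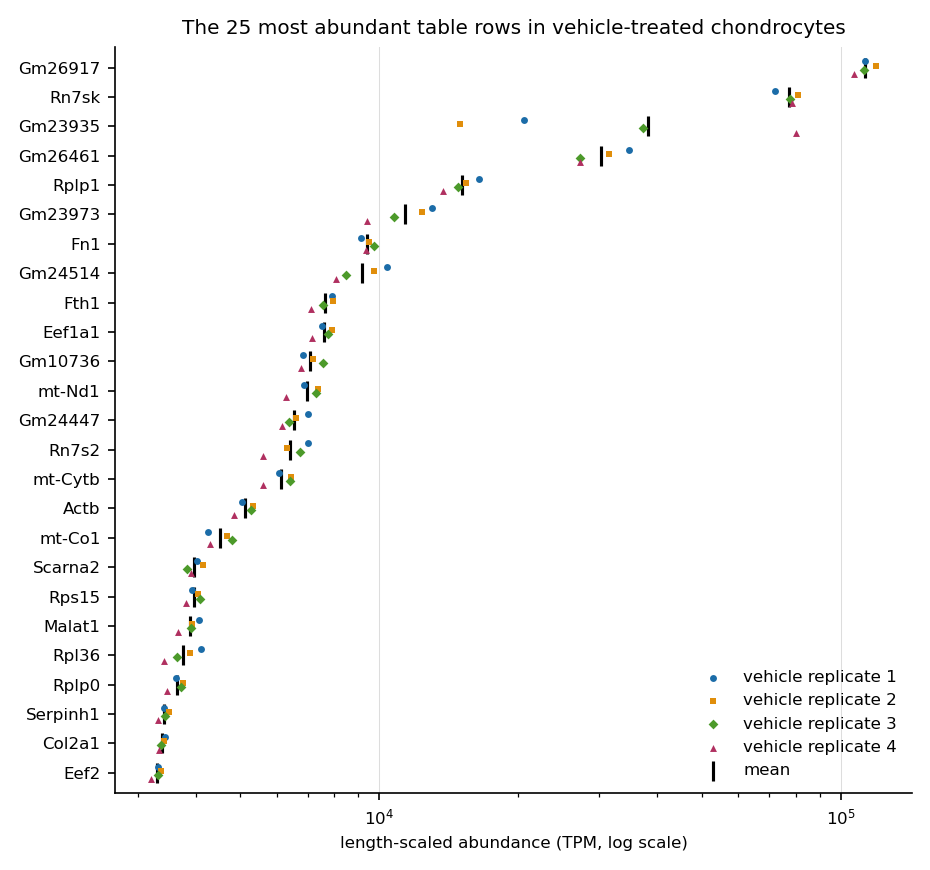
The 25 genes of highest mean length-scaled abundance, with the TPM of each vehicle sample on a log axis (points) and the mean (vertical mark). *Gm23935* spreads from 14975 to 79889 TPM, while the points of *Col2a1* lie between 3330 and 3429 TPM.

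Among mRNAs, *Rplp1*, which encodes an acidic protein of the ribosomal stalk, was the most abundant, with 16449, 15409.6, 14818 and 13745 TPM. *Fn1*, which encodes the adhesive glycoprotein fibronectin, was second with 9155, 9501, 9727 and 9347 TPM. *Fth1*, the heavy chain of the iron store ferritin, and *Eef1a1*, which brings aminoacyl-tRNA to the ribosome, were next with 7628 ± 384 TPM and 7578 ± 314 TPM. *Rplp1* was highest in replicate 1 and lowest in replicate 4, and *Fn1* was highest in replicate 3. The 25 highest genes further held *Actb*, which encodes cytoplasmic actin (5120.0 ± 229.6 TPM), *Serpinh1*, the collagen chaperone HSP47 (3416 ± 78.6 TPM), and *Eef2*, a translocase of the ribosome (3305 ± 67.7 TPM), beside *Col2a1*. The mitochondrially encoded *mt-Nd1*, *mt-Cytb* and *mt-Co1*, subunits of respiratory complexes, had 6969 ± 499 TPM, 6125 ± 394 TPM and 4509 ± 272 TPM. The ribosomal protein genes *Rps15*, *Rpl36* and *Rplp0* had 3973 ± 126 TPM, 3765 ± 297 TPM and 3644 ± 130.2 TPM. *Mif*, the cytokine macrophage migration inhibitory factor, followed at 3137 ± 98.8 TPM.

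The machinery of translation was the largest coding class. Cytosolic ribosomal protein genes made up 10.7, 10.6, 10.3 and 9.75% of the pool in replicates 1 to 4 (10.3 ± 0.435%), and 16.6% of the protein-coding pool. Of the 86 symbols of this class, 84 reached 1 TPM in every sample. Levels of single members are uncertain, since these genes have near-identical pseudogene copies that can take or lose reads. The processed pseudogene *Gm10736*, whose parent gene was not examined, was among the 25 highest genes, at 7086 ± 359 TPM. It is 78 bases long and had 198 CPM, rank 731 by CPM. Translation factors added 2.46 ± 0.0849% of the pool, of which *Eef1a1* was 30.9%.

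The mRNAs of ribosomal proteins are known to begin with a cytosine and a run of pyrimidines, the 5′ terminal oligopyrimidine tract. RefSeq promoter windows of GRCm38, with 250 bases before and 50 after the start, were found for 13102 of the 16783 protein-coding genes with a count. A C followed by 5 or more C or T, beginning within 10 bases of the start on the sense strand, was present in 31 of the 61 ribosomal protein windows (50.8%) and in 19.2% of all 13102. Among the 100 most abundant coding genes the share was 32.9% of 70 windows, and 17.1% of the 35 that were not ribosomal. The letters TATAAA, 40 to 20 bases before the start on the same strand, were in none of the 70 windows of these most abundant genes, in 3.69% of those of the following ranks down to 500, in 1.79% of all windows and in 3.41% of those of genes under 1 TPM. The tract was also in 14 of 34 collagen windows (41.2%) and in 8 of 63 windows of the collagen processing and secretory class (12.7%). The windows printed here span 40 bases before to 10 bases after the start, 5′ to 3′. Among genes with an examined window, the tract is in capitals for the 4 most abundant ribosomal protein genes that hold it. It is also in capitals for *Col6a1*, the most abundant such collagen gene. The letters TATAAA are in capitals for 4 genes of the matrix and cytoskeleton.
*Rpl38* (chr11:114668540-114668589, plus strand): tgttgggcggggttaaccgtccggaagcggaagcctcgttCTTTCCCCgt
*Rps2* (chr17:24720023-24720072, plus strand): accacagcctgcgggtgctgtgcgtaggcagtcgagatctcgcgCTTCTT
*Rps26* (chr10:128626497-128626546, minus strand): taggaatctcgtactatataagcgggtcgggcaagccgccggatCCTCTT
*Fau* (chr19:6057907-6057956, plus strand): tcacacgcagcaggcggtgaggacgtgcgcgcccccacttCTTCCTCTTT
*Col6a1* (chr10:76726035-76726084, minus strand): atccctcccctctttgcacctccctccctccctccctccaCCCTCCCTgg
*Fscn1* (chr5:142960315-142960364, plus strand): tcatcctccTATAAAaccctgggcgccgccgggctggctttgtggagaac
*Vim* (chr2:13574271-13574320, plus strand): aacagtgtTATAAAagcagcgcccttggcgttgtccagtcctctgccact
*Chad* (chr11:94565007-94565056, plus strand): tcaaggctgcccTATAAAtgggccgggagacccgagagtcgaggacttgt
*Col10a1* (chr10:34389941-34389990, plus strand): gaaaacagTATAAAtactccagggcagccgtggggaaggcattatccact
The tract began at the annotated start itself in *Rpl38*, *Fau* and *Col6a1*. Both scans rest on the annotated start, and letters outside the set ranges were not counted. In *Eef2*, for example, TATAAA lies nearer to the start than 20 bases. A match is a description of these letters only.

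Genes of the extracellular matrix formed the next theme among secreted products. The 147 proteoglycan and matrix glycoprotein genes were 2.42 ± 0.0544% of the pool, and *Fn1* alone was 38.9% of that. The class was unevenly used: 99 members reached 1 TPM in every sample, while 14 had at most 3 counts in each. *Spp1*, which encodes osteopontin, had 2281, 2411, 2434 and 2211 TPM. *Sparc*, a collagen-binding glycoprotein, had 2235, 2332, 2228 and 2189 TPM, and *Thbs1*, which encodes thrombospondin 1, had 1207, 1247, 1274 and 1159 TPM. These 3 exceeded every proteoglycan of the cartilage list. Of the exon bases of *Spp1*, 18.8% are shared with another annotated gene, and whether counting used the strand is not given in the sources used here, so reads of such overlaps may belong to either gene. Basement membrane perlecan (*Hspg2*, 557 ± 11.7 TPM) and biglycan (*Bgn*, 540.3 ± 10.4 TPM) were close to lubricin, with ranges that overlapped that of *Prg4*. The small leucine-rich proteoglycans decorin (*Dcn*) and lumican (*Lum*) had 126 ± 5.42 TPM and 121 ± 5.49 TPM, and aggrecan's link protein *Hapln1* had 264 ± 6.05 TPM.

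**Figure D2:**
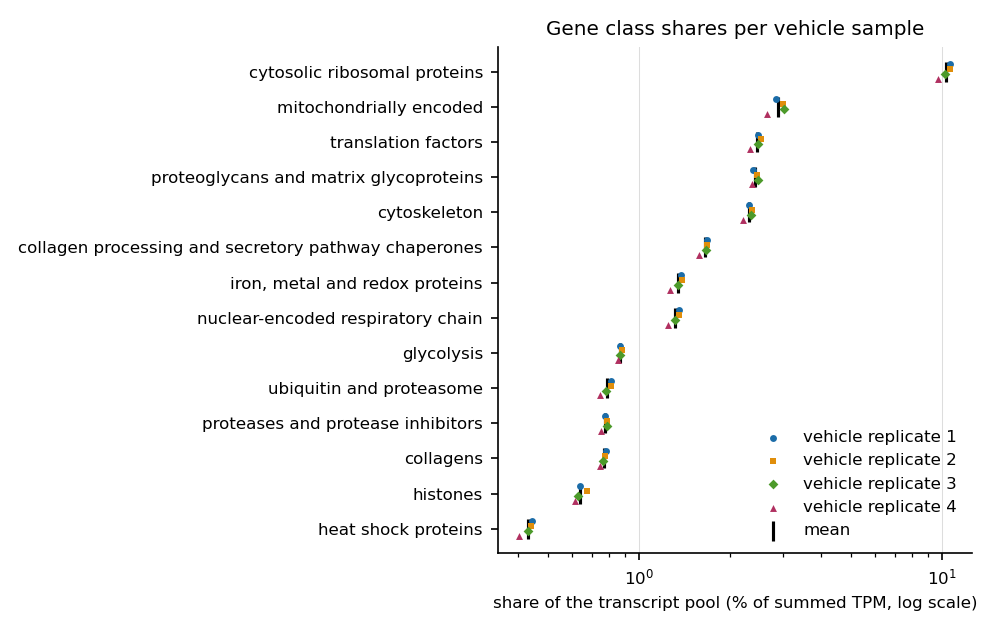
Share of the transcript pool taken by each gene class, in percent on a log axis, for each vehicle sample (points) and the mean (vertical mark). Ribosomal proteins lead at 10.3%, and collagens hold 0.765%.

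Collagens were 0.778, 0.774, 0.763 and 0.745% of the pool in replicates 1 to 4, and 1.23% of the protein-coding pool. Because collagen mRNAs are long, the same genes were 2.27% of the counts. *Col2a1* was 44.3% of the class, and 28 of 44 collagen genes reached 1 TPM in every sample. Per length, *Fn1* was 2.78 ± 0.0895 times *Col2a1*, and *Col2a1* was 7.06 ± 0.0856 times *Acan*. Some chains that share a trimer were unequal per length. *Col6a1*, a chain of the pericellular type VI collagen, had 1354, 1357, 1345 and 1287 TPM, 2.28 ± 0.0113 times *Col6a2*, and *Col6a2* was 1.34 ± 0.00851 times *Col6a3*. *Col11a1* was 2.01 ± 0.0204 times *Col11a2* and *Col9a1* was 2.02 ± 0.0605 times *Col9a2*. In contrast, *Col1a1* and *Col1a2* overlapped in range, with a ratio of 0.967 ± 0.0298, which is a ratio of steady-state RNA per length and not of protein. By counts alone, *Col6a1* was 1.20 times *Col6a2*, *Col6a2* was 0.929 times *Col6a3* and *Col1a1* was 0.511 times *Col1a2*.

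The secretory apparatus was expressed as a whole. All 82 genes of collagen processing and secretory pathway chaperones reached 1 TPM in every sample. So did 84 of 86 ribosomal protein and 87 of 91 cytoskeletal genes. Together, the 82 genes were 1.65 ± 0.0439% of the pool, more than the collagens, but 1.98% of the counts against 2.27% for collagens. Per length, the level of *Serpinh1* overlapped that of *Col2a1*, with a ratio of 1.01 ± 0.0148, above 1 in 2 of 4 samples. By counts alone, the ratio was 0.266. *Loxl4*, a lysyl oxidase that crosslinks collagen, had 1436, 1426, 1425 and 1387 TPM, and the related *Lox* had 232 ± 7.22 TPM. The endoplasmic reticulum chaperones *Hspa5* and *Calr* had 904 ± 33.0 TPM and 607 ± 30.2 TPM, and the prolyl hydroxylase subunits *P4hb* and *P4ha1* had 548 ± 17.1 TPM and 334 ± 3.76 TPM. The lowest member was *P4ha3*, another prolyl hydroxylase subunit, at 6.74 ± 0.811 TPM. The tissue inhibitors of metalloproteinases *Timp3* and *Timp1*, at 2092 ± 41.9 TPM and 1449 ± 60.9 TPM, led the proteases and their inhibitors, which together were 0.772 ± 0.0166% of the pool. *Timp3* shares 21.3% of its exon bases with another gene.

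Classes that every cell uses were smaller than the ribosomal proteins, and 71.0% of the pool lay outside all 14 classes. Cytoskeletal genes were 2.31 ± 0.0752% of the pool, with *Actb* 22.2% of that. Ubiquitin and proteasome genes were 0.786 ± 0.0309%, histones 0.640 ± 0.0250% and heat shock proteins 0.429 ± 0.0185%. The 21 glycolysis genes were 0.869 ± 0.0118% of the pool and were led by *Gapdh* (1702 ± 50.9 TPM), *Pkm* (1361 ± 37.2 TPM) and *Ldha* (1247 ± 6.94 TPM). Of the glucose transporters, *Slc2a1* had 276 ± 5.44 TPM and *Slc2a3* 1.10 ± 0.135 TPM. Mitochondrially encoded genes were 2.88 ± 0.174% of the pool and nuclear-encoded respiratory chain genes 1.32 ± 0.0495%. Iron, metal and redox genes were 1.35 ± 0.0527%, with *Fth1* 56.6% of that. The metal-binding *Mt1* had 763 ± 28.7 TPM, while its relative *Mt2*, which shares 73.5% of its exon bases with another annotated gene, had 5.76 ± 0.886 TPM.

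The wider cartilage list was present in full. All 27 genes of cartilage matrix and identity reached 1 TPM in every sample and 25 of them reached 10 TPM. Their summed level was 7668, 7645, 7502 and 7419 TPM in replicates 1 to 4, and the median member lay at 95.7 TPM. *Chad*, an integrin-binding leucine-rich protein, had 378 ± 6.43 TPM, a range that overlapped that of *Sox9*, the fibril-binding *Fmod* 326 ± 8.95 TPM and *Snorc*, a chondrocyte membrane proteoglycan, 179 ± 14.6 TPM. *Sox9* was 11.1 ± 0.382 times *Sox6* and 31.2 ± 0.361 times *Sox5* per length. By counts alone, *Sox9* was 3.10 times *Sox6* and 8.99 times *Sox5*. The matrilins differed, with *Matn1* at 51.9 ± 2.80 TPM and *Matn3* at 7.87 ± 0.696 TPM. *Cilp*, an intermediate layer protein of adult cartilage, was the lowest of the list at 2.61 ± 0.486 TPM.

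Markers of both the superficial and the deeper layers were found. The 15 genes of the middle and deep zone, many of them in the cartilage list too, all reached 1 TPM and summed to 5469.9 ± 67.4 TPM. *Col2a1* was 61.9% of that sum, the median member was at 54.3 TPM and the lowest was *Cilp* at 2.61 TPM. Superficial zone genes were also expressed unevenly. The list of 17 summed to 958 ± 33.7 TPM, of which *Prg4* was 58.5%. The median member was at 16.7 TPM. *Cdon*, a hedgehog co-receptor, had 114 ± 3.59 TPM and *Tgfbr2* 55.4 ± 2.35 TPM. The transcription factors *Erg* and *Creb5*, of which CREB5 is known to drive *Prg4*, had 10.4, 9.92, 10.4 and 9.32 TPM and 7.37, 7.88, 7.74 and 7.42 TPM. The joint morphogen *Gdf5*, which shares 40.3% of its exon bases with another gene, had 2.49, 2.81, 2.95 and 3.20 TPM. *Fgf18*, a growth factor of cartilage, ranged most widely of the list, with 0.417, 0.686, 1.70 and 1.04 TPM in replicates 1 to 4. *Dkk3* was the lowest, at 0.344, 0.485, 0.480 and 0.421 TPM. *Prg4* was 4.92 times the next member, and 14 of the 17 reached 1 TPM in every sample.

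Genes of the prehypertrophic and hypertrophic zone were also present. Of 17 genes, 14 reached 1 TPM and 12 reached 10 TPM in every sample. The list summed to 2851 ± 116 TPM, of which *Spp1*, also made by other cell types, was 81.9%. *Col10a1*, the collagen of hypertrophic cartilage, had 87.9, 95.5, 90.8 and 88.5 TPM. *Pth1r*, the receptor of parathyroid hormone-related protein, had 92.2, 94.4, 93.5 and 96.4 TPM. *Sp7* and *Runx2*, factors of hypertrophy and bone formation, had 47.2, 45.7, 51.0 and 41.8 TPM and 30.0, 31.1, 29.3 and 31.1 TPM. The values of each gene lay close together, with *Sp7* the widest of the 4. *Mmp13*, the collagenase of this zone, had 32.8, 37.1, 32.5 and 32.0 TPM, while *Ihh*, the hedgehog ligand of prehypertrophic cells, had 1.08, 0.748, 0.728 and 0.753 TPM, and *Dmp1* had at most 1 count. The 7 genes of the growth plate resting zone summed to 157 ± 6.54 TPM, of which *Apoe* was 70.8%. Of these 7, 5 reached 1 TPM in every sample. *Wif1*, *Ucma*, *Foxa3* and *Spon1* had 24.7, 9.27, 7.30 and 3.38 TPM. *Pthlh* had 0.888 ± 0.186 TPM and *Sfrp5* 0.348 ± 0.158 TPM. In bulk RNA, fewer cells of a zone and less RNA per cell cannot be told apart, so these levels do not say how many cells of each zone were in the culture.

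**Figure D3:**
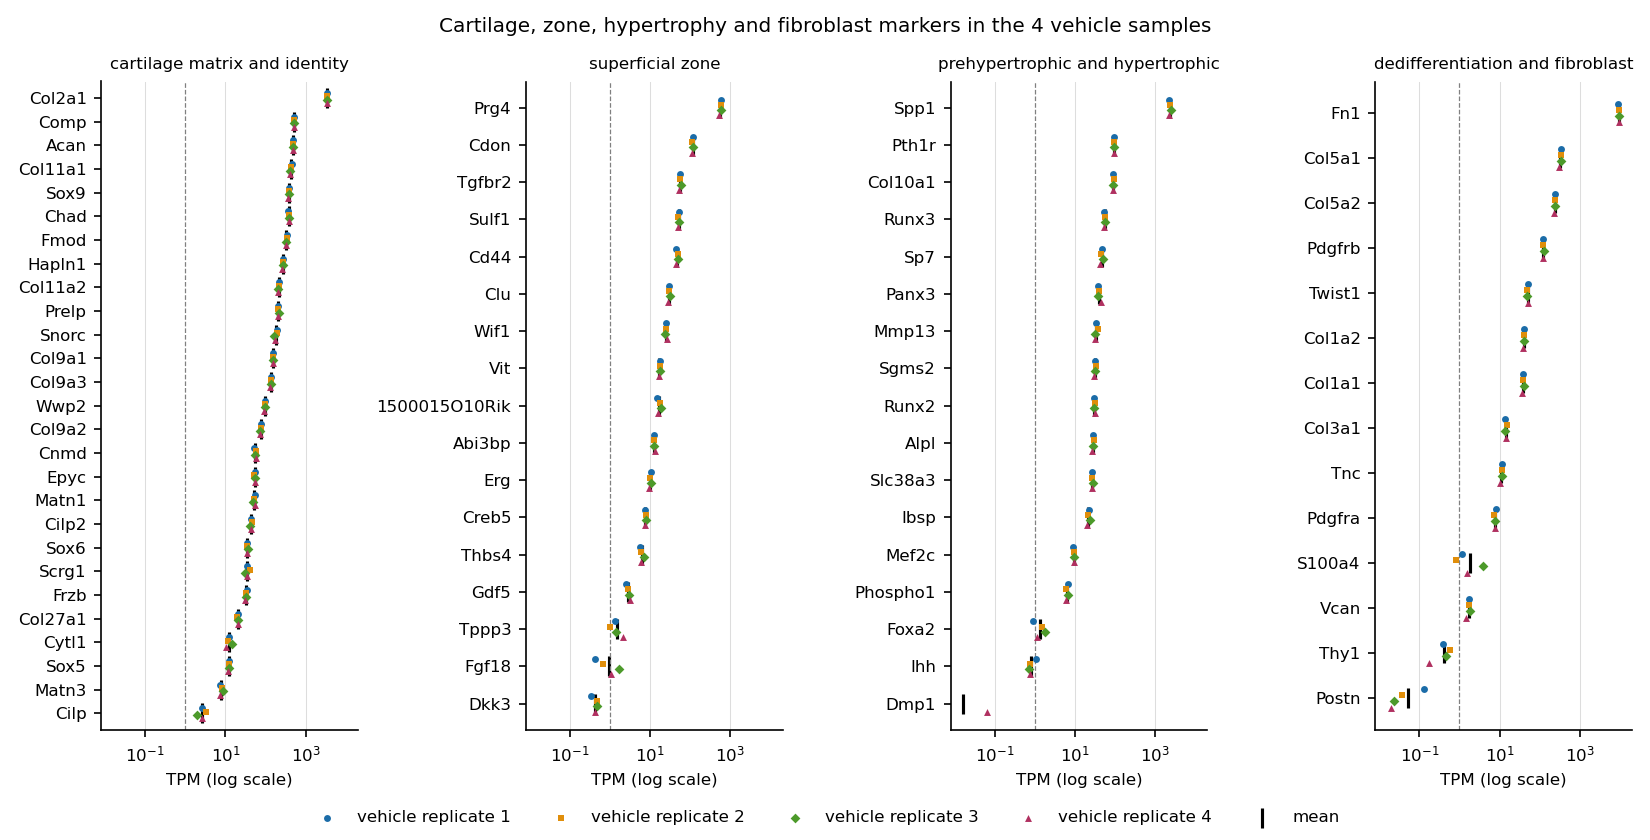
TPM on a log axis of the genes of 4 lists, for each vehicle sample (points) and the mean (vertical mark), with a dashed line at 1 TPM. Values of 0 are not drawn. *Col2a1*, *Prg4*, *Spp1* and *Fn1* lead their lists at 3388, 560.1, 2334 and 9433 TPM.

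The list for dedifferentiation and fibroblasts gave a mixed picture. Its sum of 10286 ± 245 TPM was the highest of all zone and lineage lists, but *Fn1*, which chondrocytes also make, was 91.7% of it. *Col1a1*, the type I collagen chain by which dedifferentiation is usually judged, had 38.1, 38.5, 40.9 and 36.3 TPM. *Col1a2* had 40.5, 40.0, 40.6 and 37.9 TPM, and *Col3a1* had 13.9 to 15.0 TPM. *Col2a1* was 88.3 ± 4.13 times *Col1a1*, with 82.4 to 91.8 times in single samples. The fibril collagens *Col5a1* and *Col5a2* were higher, at 328 ± 11.7 TPM and 237 ± 8.56 TPM, and so was the platelet-derived growth factor receptor *Pdgfrb*, at 123 ± 2.71 TPM. The fibroblast surface marker *Thy1* had 7, 11, 7 and 3 counts and the matricellular *Postn* 7, 2, 1 and 1 counts, and the large proteoglycan *Vcan*, abundant in many fibroblasts, had 1.69 ± 0.136 TPM.

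Contractile genes were split likewise. *Acta2*, the smooth muscle actin of myofibroblasts, had 20.9, 22.7, 23.2 and 23.4 TPM, whereas *Tagln* and *Cnn1*, other smooth muscle markers, had 5, 5, 1 and 0 counts and 12, 2, 4 and 2 counts. *Tagln* shares 67.9% of its exon bases with another gene. The tropomyosin genes *Tpm1* and *Tpm2*, which many cells use, had 82.6 ± 3.20 TPM and 65.6 ± 3.05 TPM. Of the tendon list, *Scx*, the tendon transcription factor, had 44.4, 46.5, 49.1 and 42.4 TPM and *Fibin*, a secreted protein, 258 ± 6.69 TPM. The late tendon genes *Tnmd* and *Kera* had 1, 5, 5 and 1 counts and 0, 1, 1 and 0 counts.

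Markers of blood, vessel and other lineages were low. The summed levels per sample were 0 to 1.93 TPM for 9 neutrophil genes, 1.12 to 3.03 TPM for 8 erythroid genes, 0.238 to 1.08 TPM for 10 lymphocyte genes and 0.415 to 0.641 TPM for 8 endothelial genes. Of these, 8 of 9, 6 of 8, 8 of 10 and 4 of 8 genes had at most 3 counts in every sample. The 6 adipocyte genes summed to 0.671 to 0.906 TPM, the 8 skeletal muscle genes to 3.10 to 4.26 TPM and the 7 keratinocyte and epithelium genes to 3.08 to 5.79 TPM. The 7 Schwann cell and neuron genes reached 13.2 to 16.8 TPM, of which *Tubb3* was 85.5%.

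Several lineage lists were higher mainly through 1 gene. The macrophage list summed to 28.1 to 35.6 TPM, led by the lysosomal *Cd68* (21.1 ± 2.15 TPM), which was 63.8% of it. *Cd14* and *Lyz2* had 6.87 and 3.97 TPM, and 3 of the 12 genes reached 1 TPM in every sample. In contrast, *Ptprc*, *Adgre1*, *C1qa*, *C1qb*, *C1qc* and *Fcgr1* had at most 3 counts in every sample. *Ctsk*, a collagen-degrading protease, had 202 ± 4.43 TPM and was 99.2% of the osteoclast list, in which *Dcstamp* had 0 counts and *Acp5* 0.802 ± 0.256 TPM. *Ndufa4l2*, a hypoxia-responsive mitochondrial protein, had 282 ± 8.10 TPM and was 99.4% of the pericyte list, whose *Rgs5* had 6, 4, 4 and 2 counts. In the synovial and reticular fibroblast list, *Ly6a* was 79.3% of a sum of 41.0 to 44.4 TPM. The osteoblast and osteocyte list was not led by 1 gene in this way. Its osteocalcin genes *Bglap* and *Bglap2*, which are nearly identical and can exchange reads, had 74.8 ± 3.77 TPM and 61.9 ± 6.27 TPM, while *Sost* had 0 counts and *Mepe* at most 2.

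**Figure D4:**
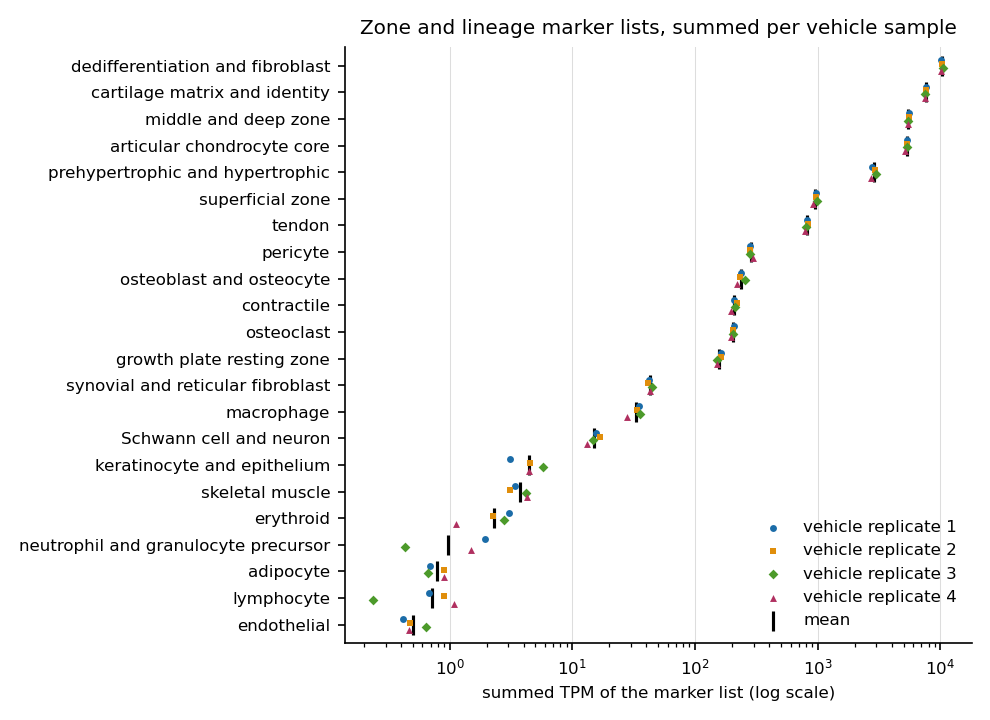
Summed TPM of each zone and lineage list on a log axis, for each vehicle sample (points) and the mean (vertical mark); a sum of 0 is not drawn, which leaves out replicate 2 of the neutrophil list. Lists of cartilage lie above 900 TPM apart from the growth plate resting zone, while the neutrophil, lymphocyte, endothelial and adipocyte lists lie below 2 TPM.

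Transcription factors of the skeleton were led by *Sox9*. Of the 42 in the list, 39 reached 1 TPM and 29 reached 10 TPM in every sample. The hypoxia factor *Hif1a* had 236, 235, 237 and 225 TPM, *Nfix* 203 ± 7.07 TPM, and the repressors *Snai1* and *Snai2* 140.5 ± 11.5 TPM and 124 ± 5.95 TPM. *Runx3*, a RUNX factor active in hypertrophic cartilage, was higher than *Runx2*, at 55.0 ± 1.72 TPM against 30.4 ± 0.860 TPM, with ranges apart. *Nfatc2* and *Barx2* were the lowest, at 0.849 ± 0.0834 TPM and 0.192 ± 0.215 TPM.

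Hindlimb genes were expressed, and the forelimb gene was near the floor. *Pitx1* and *Tbx4*, which specify the hindlimb, had 23.3, 22.6, 20.3 and 21.9 TPM and 15.1, 15.7, 14.7 and 12.9 TPM. *Tbx5*, the forelimb counterpart, had 0.177, 0.139, 0.259 and 0.151 TPM (5, 4, 6 and 4 counts), and *Tbx4* was 85.0 ± 22.7 times as high. The femoral head, from which these cells were taken, is a part of the hindlimb. Among Hox genes, some of which mark position from shoulder or hip to digit, *Hoxc10* had 55.6, 60.7, 66.3 and 56.8 TPM and *Hoxd9* 48.8, 48.3, 46.5 and 43.4 TPM. *Hoxc9* and *Hoxa10* followed with 35.7 ± 2.78 TPM and 24.7 ± 1.32 TPM, and these ranges did not overlap down to *Hoxa10*. The Hox genes of the distal groups, some of which pattern the lower leg and foot, were lower than these 4. *Hoxa11*, which shares 35.0% of its exon bases with another gene, had 1.23, 0.784, 1.41 and 0.695 TPM and *Hoxd11* 2, 6, 2 and 2 counts. *Hoxd12* had 0 counts and *Hoxa13* at most 1. The highest of these were *Hoxc11* and *Hoxc13*, at 9.08 ± 0.943 TPM and 5.29 ± 0.566 TPM.

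**Figure D5:**
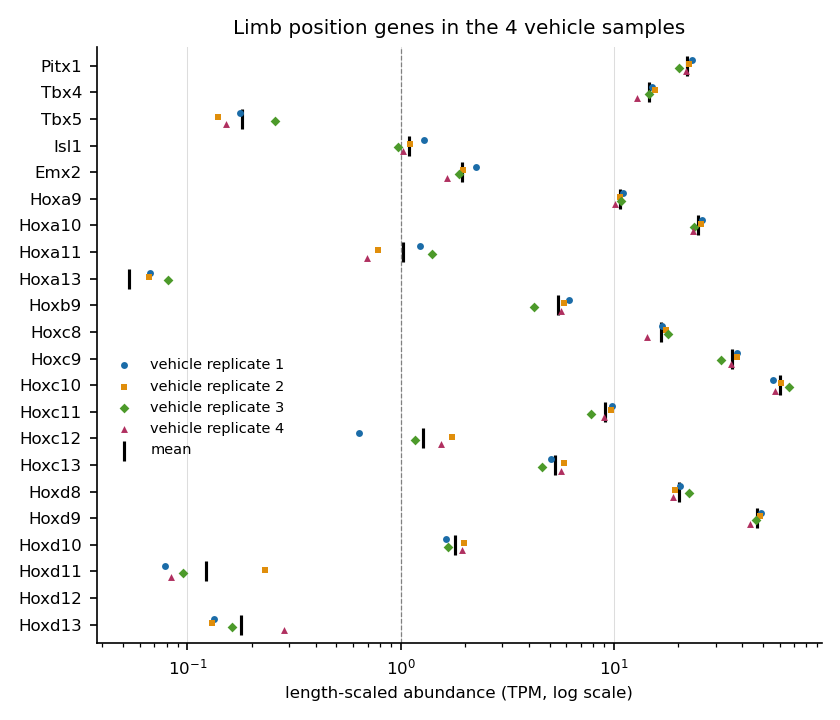
TPM on a log axis of the limb position genes, for each vehicle sample (points) and the mean (vertical mark), with a dashed line at 1 TPM. Values of 0 are not drawn. *Pitx1* and *Tbx4* lie above 10 TPM and *Tbx5* below 1 TPM in all 4 samples.

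Inflammatory genes spanned a wide range at rest. *Il6* had 0 counts in all 4 samples, which allows up to 0.249 TPM at 3 counts in the sample with the highest floor, an allowance for counting error only. *Il1b*, *Tnf* and *Cxcl5* had at most 3 counts in every sample. In contrast *Lcn2*, which encodes the iron-trapping lipocalin 2, had 297, 306, 319 and 294 TPM, and *Ptgs2*, the inducible cyclooxygenase, had 232, 238, 241 and 229.7 TPM. The 4 values of each were close together. The chemokine gene *Cxcl1* had 18.3, 19.4, 17.0 and 17.3 TPM. The matrix-degrading *Mmp3* had 36.6 ± 2.94 TPM and the aggrecanase *Adamts5* 8.03 ± 0.628 TPM, whereas *Adamts4* had 9, 10, 3 and 5 counts. Of 19 genes, 8 reached 1 TPM in every sample.

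Receptors were broadly expressed, with 34 of 36 at 1 TPM or more in every sample. *Lrp1*, a scavenger receptor that clears proteases from cartilage, was the highest at 325 ± 6.38 TPM. *Tnfrsf1a*, the main TNF receptor, had 178, 185, 175 and 170.4 TPM, and *Il1r1*, the signalling receptor of IL-1, had 16.2, 15.2, 16.2 and 15.3 TPM. Its co-receptor *Il1rap* had 1.13, 1.56, 1.22 and 1.18 TPM. Per length, *Il1r1* was 12.6 ± 1.97 times as high as *Il1rap*, and by counts alone 7.04 times. The decoy receptor *Il1r2* had 0 counts. *Smo*, the hedgehog signal transducer, had 142 ± 1.41 TPM and *Npr2*, the receptor of C-type natriuretic peptide, 99.8 ± 2.24 TPM.

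Immediate early genes were abundant beside genes of mitosis. Of 20 immediate early genes, 16 reached 10 TPM in every sample, led by *Myc* (300.2 ± 13.2 TPM) and *Klf4* (231 ± 9.78 TPM), while *Fosb* had 0.787 ± 0.124 TPM. Of 19 proliferation genes, 17 reached 1 TPM but only 5 reached 10 TPM. These were *Pcna*, *Mcm3*, *Mcm2*, *Rrm2* and *Mcm5*, genes of DNA replication, with *Pcna* at 79.5 ± 3.72 TPM. The mitotic genes *Mki67*, *Top2a*, *Cdk1* and *Ccnb1* had 9.87 ± 0.476 TPM, 6.87 ± 0.628 TPM, 3.02 ± 0.372 TPM and 1.89 ± 0.338 TPM. These levels are means over all cells of a sample.

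Several genes outside the lists were among the most abundant and were chosen after their values were seen. *Cdsn*, which encodes corneodesmosin, an adhesion protein best known from the skin, had 1043, 1061, 1025 and 988 TPM and ranked 68 among protein-coding genes, although the keratin genes *Krt5* and *Krt14* had at most 1 count in any sample. *Atf4*, the effector of the integrated stress response, had 1055, 1062, 1036 and 989.8 TPM, and the related *Atf5* had 906, 888, 855 and 800.3 TPM. *Cdkn1a*, the cell cycle inhibitor p21, had 614 ± 15.4 TPM and *Id1*, a target of BMP signalling, 633 ± 28.3 TPM. Of the rows annotated as long noncoding RNA, *Malat1*, a nuclear speckle RNA, was second to *Gm26917* at 3894 ± 167 TPM. *Gm10076* and *2410006H16Rik* were next, then the imprinted *H19* at 703 ± 4.98 TPM, with 696, 704, 707 and 705 TPM in replicates 1 to 4.

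*Xist* and Y-linked transcripts were both present in every sample. *Xist*, expressed from the inactive X chromosome of females and sharing 12.6% of its exon bases with another gene, had 79.7, 73.1, 79.5 and 74.4 TPM, and the Y-linked *Ddx3y* had 27.1, 26.2, 24.9 and 22.2 TPM. *Eif2s3y*, *Uty* and *Kdm5d*, also Y-linked, reached 1 TPM in all 4 samples. The ratio of *Xist* to *Ddx3y* was 3.07 ± 0.249, with little spread between samples.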

How the data were processed

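The authors deposited 1 table of whole-number read counts per gene symbol with gene lengths in bases. Reads had been trimmed with cutadapt, aligned to mm10 with GENCODE vM20 by STAR (2.4.2a in the submitters' processing notes, another version in the methods) and counted with featureCounts. The methods name a batch correction; whether it was applied to this table is not stated, and the values were used as counts. The 4 vehicle columns were used and the 4 IL-1β columns were not read, so no comparison between groups was made. Single samples were checked within the group by Dixon's ratio. Counts were divided by the deposited length and scaled to 1000000 per sample (TPM). Biotypes and coordinates came from GENCODE release 21 (GRCm38), which matched 53994 symbols (98.8%) holding 99.7% of counts. Classes were formed from symbols. The lists, and with them the genes, were chosen with earlier results of these data known. The named genes were the 25 most abundant and, by list, the highest, lowest and defining genes and those at 3 counts or fewer in every sample, of which the text gives examples and otherwise counts, and the 10 most variable genes with a mean of at least 100 counts. Variation was estimated with edgeR 4.0.16 (TMM factors, CPM above 1 in all samples), after the script was tested on simulated data, and other values with Python 3.11.15, pandas 2.3.3 and numpy 2.4.6. Limits set by 3 counts cover counting error only. Promoter windows are from RefSeq (GRCm38.p6).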

Additional observations from a re-analysis of the deposited data

Results flagged for a closer look

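In 10 of 191 named genes, 1 vehicle sample lay farther from the other 3 than Dixon's 95% critical value allows, where chance alone gives about 1 in 20, or 9.55 genes. Replicate 4 was the low sample in 5 of them. *Sox9* had 363 TPM there against 388 to 393 TPM in the others, *Bgn* 525 TPM against 545 to 547 TPM, *Col6a1* 1287 TPM against 1345 to 1357 TPM and *Hif1a* 225 TPM against 235 to 237 TPM. *Bglap* was also low in replicate 4, with 69.1 TPM against 76.0 to 77.0 TPM. *Smo* was lowest in replicate 3, with 140.2 TPM against 143 TPM in each of the others. *Mmp13* was highest in replicate 2, with 37.1 TPM against 32.0 to 32.8 TPM, as was *Hoxd11*, with 0.232 TPM against 0.0784 to 0.0957 TPM. *Ihh* and *Postn* were highest in replicate 1, with 1.08 TPM against 0.728 to 0.753 TPM and 0.133 TPM against 0.0203 to 0.0374 TPM. The small structural RNAs took 24.0% of the pool in replicate 4 and 18.2 to 19.7% in the others, and their part in the low values of replicate 4 was not tested.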

How the results depend on the processing

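Shares and levels moved with the denominator, while leaving out any vehicle replicate moved no share or level below by more than 1 SD and no count by more than 1.5 times. Without division by length (CPM), 420 genes held 50% of the pool, the shares were 2.27% for collagens, 5.35% for ribosomal proteins, 1.09% for mitochondrially encoded genes and 1.90% for the cartilage list, and *Col2a1* was at 11206. With 200 bases taken from each length and genes under 300 bases left out, 57 genes held 50%, collagens were 0.666%, ribosomal proteins 11.3%, the cartilage list 0.672% and *Col2a1* 2929.7. With protein-coding genes alone in the total, these were 401 genes, 1.23%, 16.6%, 1.22% and 5457, and mitochondrially encoded genes were 4.24%. With mitochondrially encoded genes left out of the total, collagens were 0.788%, the cartilage list 0.778% and *Col2a1* 3488. With small structural RNAs, *Gm26917* and *CT010467.1* left out of the total, a setting chosen after seeing the data, 460 genes held 50%, collagens were 1.12%, ribosomal proteins 15.1%, mitochondrially encoded genes 4.19%, the cartilage list 1.10% and *Col2a1* 4942. These moves follow from the totals and lengths used. At 5 TPM in each sample 9944 genes were detected. Without *Col2a1*, the cartilage list was 0.419% of the pool. Leaving out 1 replicate gave 15172 to 15318 genes detected, 92 to 105 genes holding 50%, 0.761 to 0.772% for collagens and 3374 to 3407 TPM for *Col2a1*. The common variation went from 3.37% without replicate 4 to 4.71% without replicate 3. No paired analysis was possible because 1 group was examined and no test between groups was made. Depth limits the lowest genes, since 3 counts were the floor.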
